A study of Mus musculus with 10 samples.

Results

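The genes described here encode glycosyltransferases of the Golgi apparatus: Abo, the blood group transferase, and the families whose symbols begin with Galnt, Gcnt, B3galt, B4galt, B3gnt, Fut, St3gal, St6gal or St6galnac. They were chosen by symbol among the array's probe sets that carry a single gene symbol, which gave 62 of the 30142 genes tested. Of these, 60 are transferase genes, and the other members are Fut4-ps1, a pseudogene, and Galnt6os, an antisense transcript. Each had a single probe set. Abo was included with its change in these data already known, so its values are given as a description of the gene at the head of the group.

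ClariomD (MTA-1.0) microarrays from Affymetrix gave the expression levels in luminal epithelial cells sorted from prostates of male mice carrying Hoxb13-rtTA and TetO-H2BGFP, a doxycycline-dependent nuclear green fluorescent protein that follows the Hoxb13 promoter. Regenerated arrays (n = 4) came from mice castrated at 12 weeks of age, left for 6 weeks of regression, and then given testosterone for 4 weeks by a silastic implant under the skin. Castrated arrays (n = 3) came from mice with the same surgery and 6 weeks of regression, and intact arrays (n = 3) from mice that were not operated on. Mice of all 3 groups carried both transgenes and drank doxycycline at 2 mg/ml for 1 week before death. The sorted cells were positive for the reporter and CD24, intermediate for CD49f and negative for immune surface markers. Arrays of a group are labelled as biological replicates, with no word on whether cells of several mice were pooled, so every p-value reflects the variation among these arrays. No group stayed castrated without testosterone for the whole time that regenerated mice did, so testosterone and time since surgery cannot be told apart. Genes tied to the sort and the reporter differed between the groups. Hoxb13 averaged 9.47 ± 0.86 in regenerated, 7.74 ± 0.20 in castrated and 10.39 ± 0.17 in intact arrays (SD, log2 intensity), and Cd24a, the gene of the CD24 gate, averaged 15.33 ± 0.47 in regenerated, 16.03 ± 0.09 in castrated and 14.31 ± 0.26 in intact arrays.

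Glycosyltransferases build sugar chains on proteins and lipids one residue at a time, each using an activated sugar nucleotide that is made mainly in the cytosol and carried into the Golgi lumen. Mucin-type O-glycans start with N-acetylgalactosamine (GalNAc) placed on serine or threonine by the Galnt enzymes, and galactosyl-, N-acetylglucosaminyl (GlcNAc)-, fucosyl- and sialyltransferases then extend and cap the chains. Prostate luminal cells secrete many glycoproteins into seminal fluid, and much of that secretion depends on androgen.

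Values are log2 intensities from the authors' robust multi-array average (RMA), so a difference of 1 is a doubling. The highest background control value on any array was 6.40, from castrated replicate 3, with 4.66 to 5.58 on the others. It is used below as a wide limit under which a value is not clearly above background. Of the 60 transferase genes, 19 had a group mean above it and 41 did not. Regenerated replicate 4 stood apart from the other regenerated arrays: of the 8 transferase genes that fell in castrated arrays, it held the lowest regenerated value in 6. Where leaving it out changed the call of a member, both values are given. Of the 6 measured luminal markers all had group means above the limit in each group, and the pan-leukocyte gene Ptprc read 3.60 in regenerated, 3.63 in castrated and 3.64 in intact arrays. Of 7 leukocyte markers, 6 including Ptprc had no group mean above the limit. Cd3e was the exception and was highest in castrated arrays, with its values given further below. In these sorted cells, fewer cells of a type and less RNA per cell cannot be told apart.

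A few of these genes were far lower in castrated than in intact arrays, and most did not pass the test. Between castrated and intact arrays, 10 of 62 genes changed (16.1%), 8 lower and 2 higher in castrated arrays, by limma with a Benjamini-Hochberg adjusted p under 0.05 over all genes. Over all 30142 genes, 8.01% changed in this comparison, 4.82% higher and 3.19% lower. Without Abo, 7 of the other 61 were lower and 2 higher (14.8% together). Those that fell were Abo, B4galt6, Galnt18, Galnt4, St3gal5, Galnt10, Galnt3 and Galnt7, and those that rose were B4galt4 and Galnt9. The median difference was 0.01 log2 over the 62 genes and 0.04 over all genes. The groups did not overlap in 26 of the 62 genes, 13 in each direction, a larger share than the 28.9% of all genes. If Abo is left out, 13 of the other 61 lay higher and 12 lower in castrated arrays. The count depended on single arrays, and so did the count over all genes, which was 2414 with all arrays. Without intact replicate 1, 4 members and 1019 of all genes were called, and without intact replicate 2, 5 and 1200. Without castrated replicate 2 or 3, 5 members were called each time, with 1473 and 1622 of all genes. The counts were 6 and 2063 without regenerated replicate 3, and 16 and 3271 (10.9% of all genes) without regenerated replicate 4.

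After testosterone, 4 of 62 genes changed between regenerated and castrated arrays (6.45%), all of them higher in regenerated arrays: Abo, B4galt6, Galnt18 and Galnt4. Over all genes 4.98% changed, 1.97% higher and 3.01% lower. Without regenerated replicate 4 the count was 7 (7.06% of all genes were called in that fit), with St3gal3 and St3gal5 added as higher and Galnt9 as lower in regenerated arrays. Without Abo, 3 of the other 61 changed, all higher (4.92%). The share higher was 1.97% over all genes and 5.01% over the genes with a group mean above the background limit. The groups did not overlap in 15 of the 62 genes, 9 higher and 6 lower in regenerated arrays, a larger share than the 16% of all genes. If Abo is left out, 8 of the other 61 lay higher and 6 lower. Both comparisons use the same castrated arrays, so a chance deviation of those arrays enters both. Between regenerated and intact arrays, limma called 0 of 62 genes, against 0.0365% of all genes. An unadjusted p under 0.05 was found for 12 of the 62, a larger share than the 10% of all genes (3019 of 30142). The lack of calls therefore does not show equal levels. A test of the 3 groups together, limma's moderated F-test, called 6 of the 62 (9.68%), against 6.51% of all genes. They were Abo, B4galt6, Galnt18, Galnt4, St3gal5 and B4galt4. Abo is counted there although its change was known, and the share is smaller if it is left out.

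**Figure D1:**
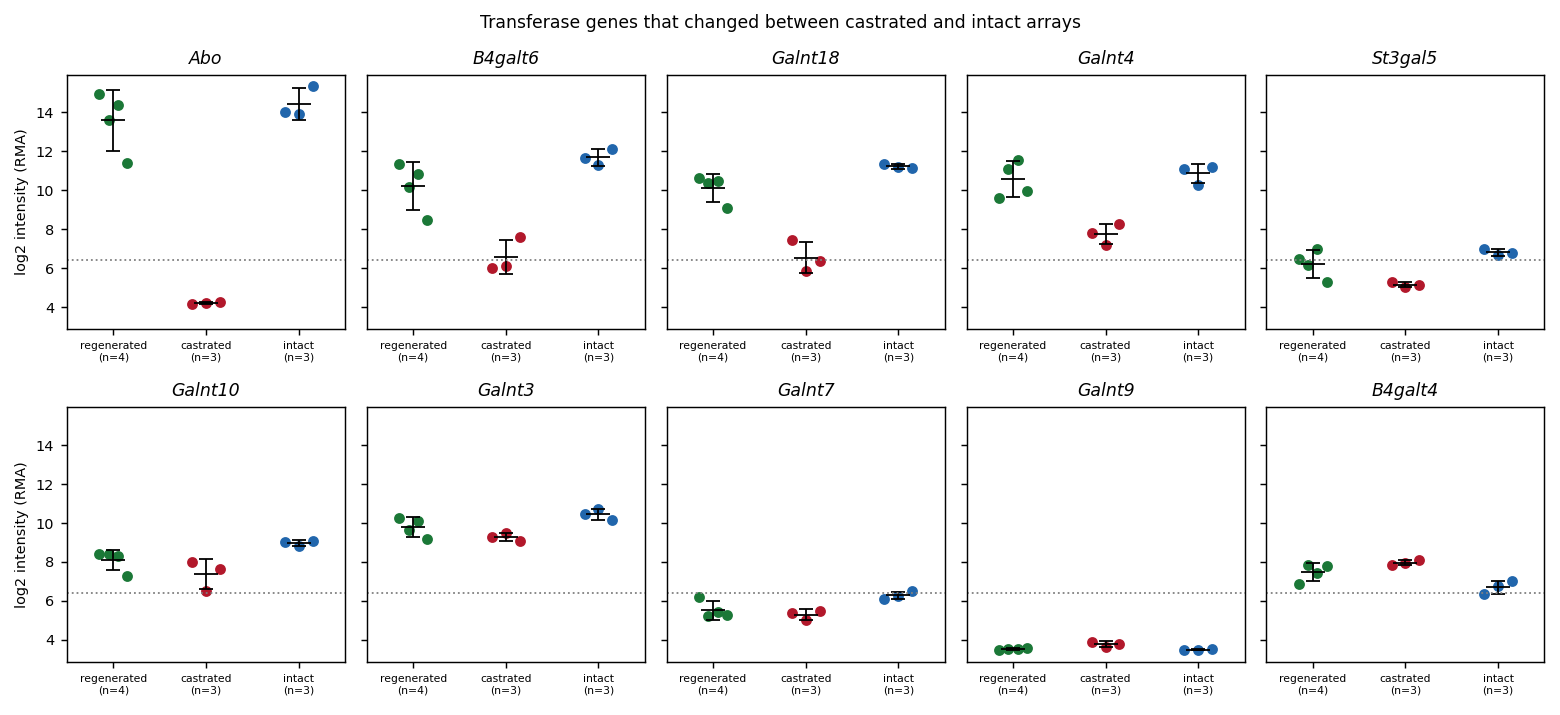
Log2 RMA intensity (vertical axis) of the 10 transferase genes that changed between castrated and intact arrays, by group. Each point is 1 array, the bar is the group mean with its SD, and the dotted line is the highest background control value, 6.40. Abo read 4.17 to 4.25 in castrated arrays and at least 11.41 in all others.

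Abo (transcript cluster TC0200003201.mm.1) encodes the enzyme that adds GalNAc or galactose to the fucosylated H structure, giving the A or B blood group antigen. Its log2 intensity was 14.95, 13.60, 14.36 and 11.41 in regenerated replicates 1 to 4, against 4.17, 4.22 and 4.25 in castrated replicates 1 to 3 and 14.00, 13.90 and 15.34 in intact replicates 1 to 3. Castrated arrays were near the floor of the scale with almost no spread, and every regenerated and intact array lay far above them, with regenerated replicate 4 the lowest of those. The fitted difference was -10.20 ± 0.76 (SE) for castrated minus intact and 9.36 ± 0.71 for regenerated minus castrated. Since the castrated values lie under the background limit, the fall has only a lower bound: with values under the limit raised to it, the differences were -8.02 and 7.18. Regenerated minus intact was -0.84, with a 95% confidence interval of -2.41 to 0.74, and no p-value is given for Abo because its change was known.

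Fut1 and Fut2 encode the fucosyltransferases that make the H structure on which Abo acts. Fut2, the form of secretory epithelia, read 9.46, 9.56, 9.43 and 9.75 in regenerated, 9.41, 8.15 and 9.09 in castrated and 8.92, 6.76 and 9.81 in intact arrays. The intact arrays spread more widely than either other group, and castrated and intact values overlapped. Castrated minus intact was 0.39, with an interval of -1.01 to 1.79 (limma adjusted p = 0.805), and regenerated minus castrated was 0.67 (adjusted p = 0.614). Fut1 stayed between 3.38 and 3.83 on all arrays, under the background limit. None of the 7 fucosyltransferase genes changed in any comparison with all arrays in the fit.

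The Galnt family, with 17 transferase genes, held 6 of the 10 genes that changed between castrated and intact arrays, 5 lower and 1 higher. That is 35.3% of the family, against 8.01% of all genes and 18.1% of the genes above the background limit, and Galnt7 and Galnt9 among the 6 had no group mean above that limit. Galnt18 (TC0700004111.mm.1) belongs to the same subfamily as Galnt9 and Galnt17. It read 10.61, 10.36, 10.47 and 9.07 in regenerated, 7.42, 5.85 and 6.36 in castrated and 11.37, 11.18 and 11.12 in intact arrays. The 3 groups did not overlap, with castrated arrays lowest and intact arrays highest. The castrated minus intact difference was -4.68 ± 0.46 (limma adjusted p = 0.000328), and regenerated minus castrated was 3.58 ± 0.43 (adjusted p = 0.00118). Regenerated minus intact was -1.10, with an interval of -2.05 to -0.14, and did not pass adjustment (adjusted p = 0.417). Galnt18 fell below the limit in castrated replicates 2 and 3, and with values raised to that limit the differences were -4.48 and 3.39.

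Galnt4 (TC1000001204.mm.1) encodes an enzyme that also acts on peptides already carrying GalNAc. It read 9.59, 11.08, 11.57 and 9.98 in regenerated, 7.83, 7.20 and 8.24 in castrated and 11.11, 10.29 and 11.20 in intact arrays. All castrated values lay below all others, and regenerated and intact values overlapped. The difference was -3.11 ± 0.51 for castrated minus intact (limma adjusted p = 0.00497) and 2.80 ± 0.48 for regenerated minus castrated (adjusted p = 0.00811), while regenerated minus intact was -0.31 with an interval of -1.37 to 0.75. The gene lies within the locus of Poc1b, a centriole protein gene, whose own probe set differed by -0.55 between castrated and intact arrays (adjusted p = 0.274) and by 0.52 between regenerated and castrated arrays (adjusted p = 0.296).

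Galnt10 and Galnt3 fell to a smaller extent. Galnt10, which acts on peptides that already carry GalNAc, read 8.38, 8.39, 8.31 and 7.30 in regenerated, 8.0, 6.51 and 7.65 in castrated and 9.05, 8.81 and 9.07 in intact arrays. Intact arrays were the highest, and regenerated replicate 4 lay among the castrated arrays. Castrated minus intact was -1.60 ± 0.40 (limma adjusted p = 0.035), and regenerated minus castrated was 0.71, with an interval of -0.11 to 1.54. Galnt3, known in human and mouse for glycosylating the phosphate hormone FGF23, read 10.25, 9.64, 10.11 and 9.16 in regenerated, 9.26, 9.47 and 9.07 in castrated and 10.48, 10.73 and 10.16 in intact arrays. The castrated and intact values did not overlap. Regenerated replicate 4 lay inside the castrated range, replicate 1 inside the intact range, and replicates 2 and 3 between the ranges. Its difference was -1.19 ± 0.31 for castrated minus intact (limma adjusted p = 0.0398) and 0.52, with an interval of -0.11 to 1.15, for regenerated minus castrated. Both calls were lost when any 1 of intact replicates 1 and 2, castrated replicates 2 and 3 and regenerated replicates 2 and 3 was left out. The Galnt10 call was also lost without intact replicate 3 and the Galnt3 call without castrated replicate 1, with adjusted p up to 0.119 for Galnt10 and 0.149 for Galnt3.

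Galnt7 and Galnt9 changed at low intensity. Galnt7, another enzyme that follows earlier GalNAc residues, read 5.2 to 6.23 in regenerated, 5.0 to 5.5 in castrated and 6.12 to 6.5 in intact arrays, and castrated minus intact was -0.99 ± 0.26 (limma adjusted p = 0.0442). Galnt9 read 3.48 to 3.59 in regenerated, 3.65 to 3.92 in castrated and 3.49 to 3.52 in intact arrays, a castrated minus intact difference of 0.29 ± 0.07 (adjusted p = 0.0387). Its regenerated minus castrated difference was -0.26 (limma adjusted p = 0.0557), and -0.28 without regenerated replicate 4 (adjusted p = 0.0479). Neither gene had a group mean above the background limit, and leaving out any 1 of the intact arrays, among others, ended each call between castrated and intact arrays, with adjusted p of up to 0.15 for Galnt7 and 0.123 for Galnt9 across those single arrays. Intact replicate 3 alone had a Galnt7 value above the background limit. Raising values to that limit therefore removes nearly any Galnt7 difference (-0.03, limma adjusted p = 0.632) and cannot test it. Of the genes not called, Galnt1, a broadly acting initiating enzyme, averaged 6.68 in regenerated, 6.35 in castrated and 7.02 in intact arrays (castrated minus intact -0.67, adjusted p = 0.07, and 0.0201 without regenerated replicate 4). Galnt2 differed by -0.30 (adjusted p = 0.251) and Galnt11 by -0.04, with an interval of -0.67 to 0.59. Galnt17, under the background limit, differed by 0.55 (adjusted p = 0.142, and 0.0437 without regenerated replicate 4).

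**Figure D2:**
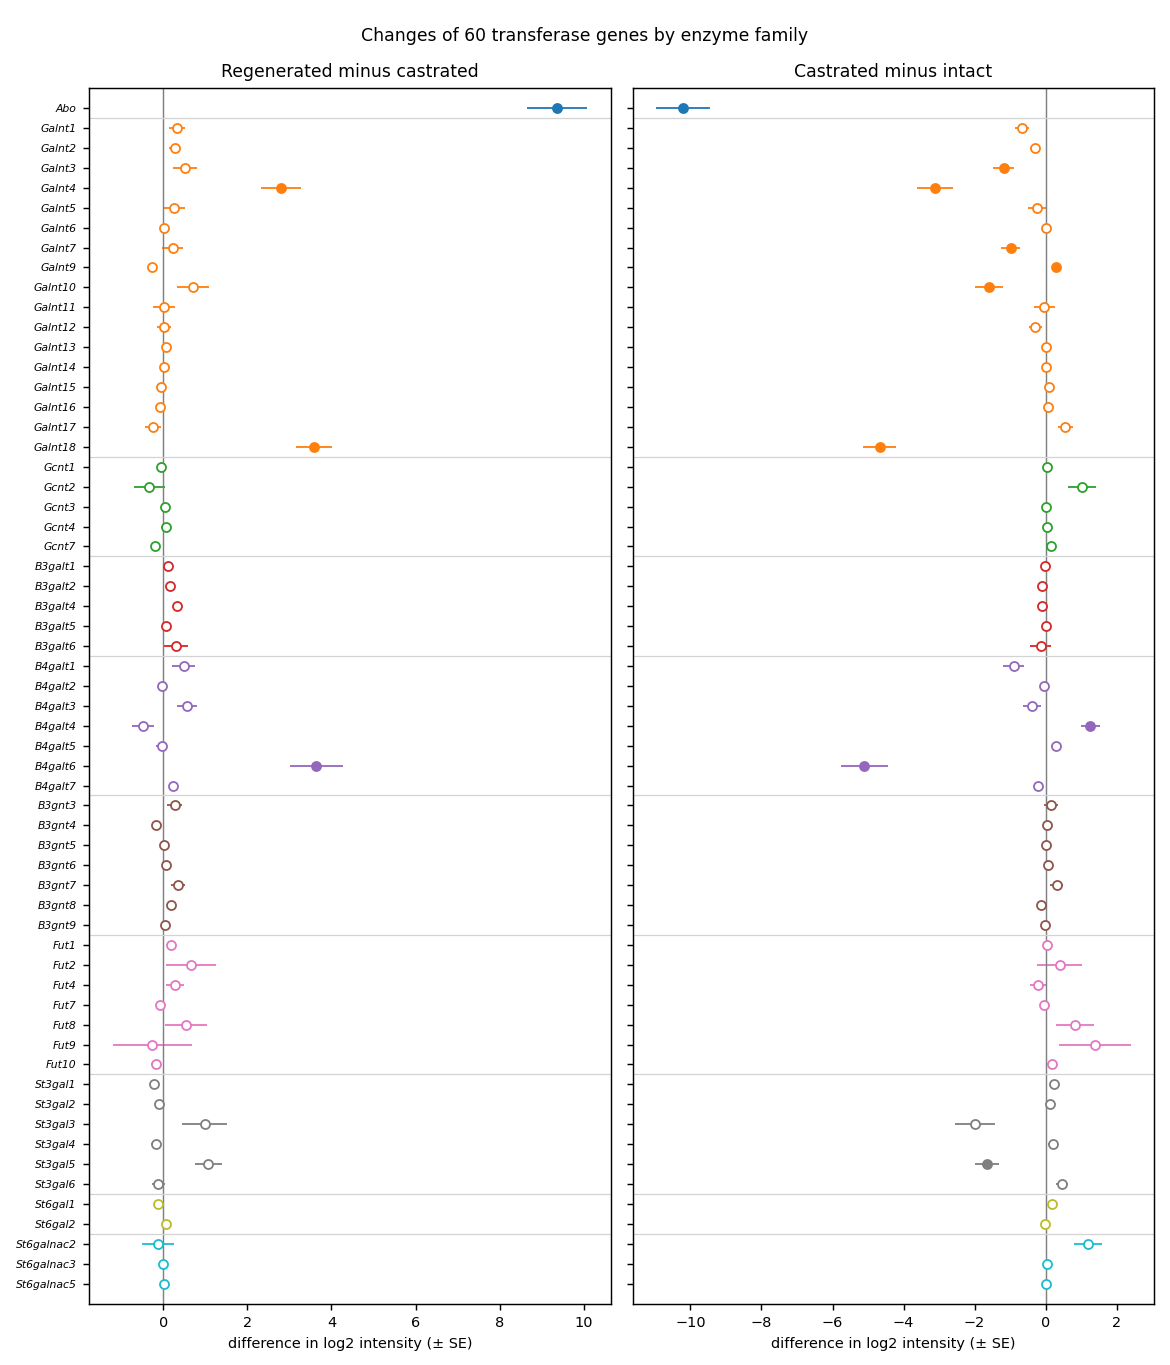
Fitted log2 differences (horizontal axis, bars are SE) of the 60 transferase genes for regenerated minus castrated arrays (left) and castrated minus intact arrays (right), ordered by enzyme family and coloured by it. Filled points have a limma adjusted p under 0.05. The 4 filled points on the left, Abo, Galnt4, Galnt18 and B4galt6, lie below 0 on the right.

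The beta-1,4-galactosyltransferases, 7 genes, moved in both directions. B4galt6 (TC1800001048.mm.1) encodes a lactosylceramide synthase, which adds galactose to glucosylceramide at the start of most complex glycolipids. It read 11.36, 10.17, 10.84 and 8.49 in regenerated, 6.03, 6.12 and 7.60 in castrated and 11.67, 11.27 and 12.11 in intact arrays. Castrated arrays did not overlap with either other group, and regenerated replicate 4 was the nearest to them. Intensity differed by -5.10 ± 0.67 for castrated minus intact (limma adjusted p = 0.00152), and regenerated minus castrated was 3.63 ± 0.63 (adjusted p = 0.00853). Castrated replicates 1 and 2 lay under the background limit, and with values raised to it the differences were -4.89 and 3.42, both called. Without regenerated replicate 4 the second difference was 4.21 ± 0.46 (adjusted p = 0.000708). Regenerated minus intact was -1.47, with an interval of -2.86 to -0.08, and did not pass adjustment (adjusted p = 0.471). B4galt5, which encodes the other lactosylceramide synthase, averaged 4.60 in regenerated, 4.64 in castrated and 4.36 in intact arrays, under the background limit.

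B4galt4, whose enzyme adds galactose to GlcNAc that carries sulfate, was the other member of that family to change, and it rose. It read 6.86, 7.85, 7.46 and 7.80 in regenerated, 7.82, 7.97 and 8.12 in castrated and 6.36, 6.76 and 7.01 in intact arrays. Castrated arrays were all above intact arrays, and regenerated arrays overlapped with both. In castrated minus intact arrays the difference was 1.26 ± 0.28 (limma adjusted p = 0.0197), regenerated minus castrated was -0.48 (adjusted p = 0.36), and regenerated minus intact was 0.78, with an interval of 0.21 to 1.35 (adjusted p = 0.326). The call was lost without intact replicate 1 or 2 or castrated replicate 2 or 3, with adjusted p between 0.061 and 0.0962. B4galt1, the principal galactosyltransferase of N-glycans, read 9.02, 9.94, 9.99 and 9.63 in regenerated, 9.07, 8.93 and 9.48 in castrated and 10.19, 10.16 and 9.84 in intact arrays. Intact arrays were above all castrated arrays, but the difference of -0.91 ± 0.29 did not pass adjustment (adjusted p = 0.091). B4galt3 differed by -0.40 between castrated and intact arrays (adjusted p = 0.44).

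Of the 6 alpha-2,3-sialyltransferase genes, 1 changed between castrated and intact arrays (16.7%, against 8.01% of all genes). Without regenerated replicate 4, 3 did, where 10.9% of all genes were called. St3gal5 encodes the synthase that puts sialic acid on lactosylceramide, the product of B4galt6, to make the ganglioside GM3. It read 6.48, 6.16, 7.0 and 5.26 in regenerated, 5.27, 5.05 and 5.15 in castrated and 7.0, 6.67 and 6.77 in intact arrays. Castrated arrays were below intact arrays, and regenerated replicate 4 lay within the castrated range while the other regenerated arrays lay above it. Castrated minus intact was -1.66 ± 0.35 (limma adjusted p = 0.0159). Regenerated minus castrated was 1.07 ± 0.32 (adjusted p = 0.0924), and 1.39 ± 0.21 without regenerated replicate 4 (adjusted p = 0.00386). The castrated values and part of the regenerated ones are under the background limit, and with values raised to it the fall was 0.42 on the log2 scale and no longer called (adjusted p = 0.0903). It was also not called without intact replicate 1 (adjusted p = 0.0725) or castrated replicate 2 (adjusted p = 0.0555).

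St3gal3, which sialylates galactose of N-acetyllactosamine chains, read 7.99, 7.54, 8.04 and 5.75 in regenerated, 6.98, 5.73 and 6.32 in castrated and 8.62, 7.80 and 8.56 in intact arrays. Intact arrays were above all castrated arrays, and regenerated replicate 4 was level with the lowest castrated array. Its castrated minus intact difference was -1.98 ± 0.56 (limma adjusted p = 0.0588) and regenerated minus castrated 0.99 (adjusted p = 0.354). Without regenerated replicate 4, which also enters the estimate of the spread, these were -1.98 ± 0.34 (adjusted p = 0.00533) and 1.51 ± 0.34 (adjusted p = 0.0263). The other gene called without that array was St3gal6, under the background limit at 4.51 in regenerated, 4.63 in castrated and 4.17 in intact arrays (castrated minus intact 0.45, adjusted p = 0.157 with the array and 0.00874 without it). The 5 alpha-2,6-sialyltransferase genes had no call in the unweighted fit of all arrays. St6gal1, which sialylates N-glycans, averaged 3.52 in regenerated, 3.64 in castrated and 3.47 in intact arrays, under the background limit. St6galnac2, which sialylates the GalNAc of O-glycans, averaged 5.81 ± 0.73 in regenerated, 5.93 ± 0.61 in castrated and 4.73 ± 0.07 in intact arrays, a castrated minus intact difference of 1.19 (adjusted p = 0.107). It was called with array weights (limma adjusted p = 0.0268), with only the castrated and intact arrays (0.043) and without regenerated replicate 1 (0.0233).

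The branching and chain-extending enzymes, 5 Gcnt, 5 B3galt and 7 B3gnt genes, had no call in the unweighted fit of all arrays as deposited. B3galt4, under the background limit, was called higher in regenerated than in castrated arrays with array weights or with each array centred on its median. Gcnt2, whose enzyme makes the branches of the I blood group antigen, read 8.22, 9.80, 8.06 and 8.91 in regenerated, 9.20, 9.06 and 8.97 in castrated and 8.07, 8.27 and 7.83 in intact arrays. Castrated arrays were all above intact arrays and regenerated arrays spanned both, and the castrated minus intact difference was 1.02 ± 0.39 (limma adjusted p = 0.165). That difference was called with only the castrated and intact arrays in the fit (adjusted p = 0.0242) and without regenerated replicate 2 (adjusted p = 0.0491). B3gnt3, which extends core 1 O-glycans, averaged 6.41 in regenerated, 6.14 in castrated and 5.98 in intact arrays. B3galt6, which builds the linkage region of glycosaminoglycans, averaged 5.37 in regenerated, 5.07 in castrated and 5.21 in intact arrays. In the fucosyltransferase family, Fut8, which adds fucose to the N-glycan core, read 5.75, 6.38, 5.97 and 8.33 in regenerated, 5.84, 6.19 and 6.17 in castrated and 5.30, 5.33 and 5.14 in intact arrays. Regenerated replicate 4 was far above every other array, and castrated arrays were above intact ones. The castrated minus intact difference of 0.82 was not called (adjusted p = 0.448), and was called without regenerated replicate 4 (adjusted p = 0.0173). Fut9, which makes the Lewis x structure, gave 9.75 in regenerated replicate 4 and no more than 7.43 on any other array. Its castrated arrays, at 5.88 to 7.43, lay above its intact arrays, at 4.94 to 5.80, and the difference of 1.38 had an adjusted p of 0.511 with regenerated replicate 4 in the fit and 0.0478 without it.

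**Figure D3:**
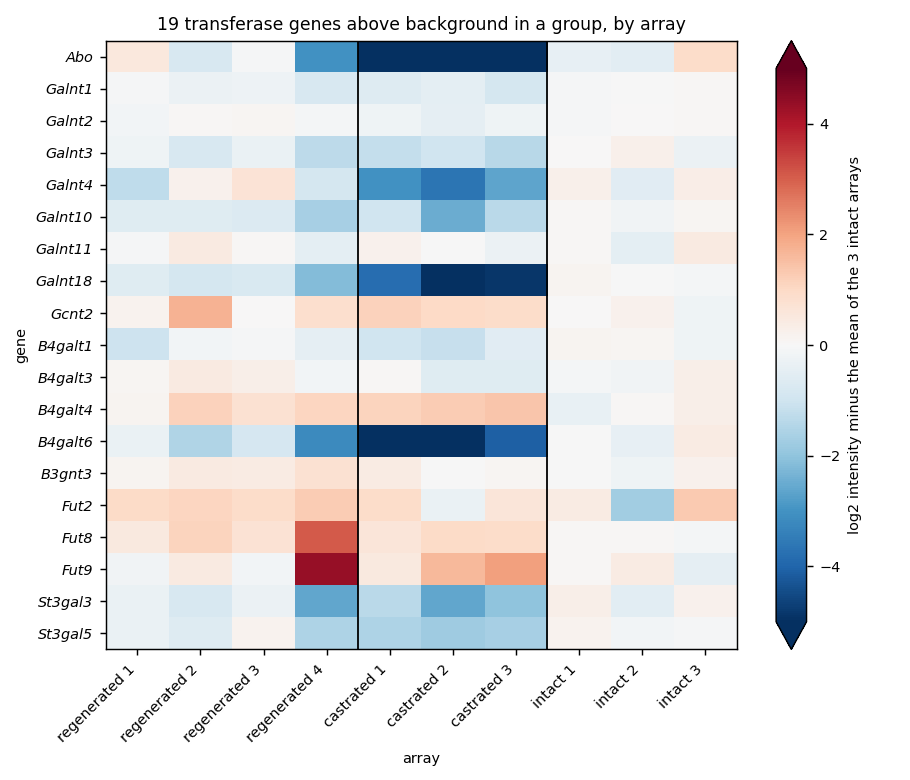
Log2 intensity minus the mean of the 3 intact arrays (colour) for the 19 transferase genes with a group mean above the highest background control value, with 1 column per array. Abo, B4galt6 and Galnt18 are darkest blue in the castrated columns, and Fut8 and Fut9 are red in regenerated replicate 4.

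The 43 of 62 genes with no group mean above the background limit stayed between 2.77 and 6.5 on all arrays. Their differences ran from -0.99 to 1.19 for castrated minus intact and from -0.26 to 0.35 for regenerated minus castrated, where true changes can be compressed. Galnt7 and Galnt9 were the only ones called. St6galnac1, St6galnac4, St6galnac6, B3gnt2 and Fut11 are not among the 62, since their probe sets also carry another symbol.

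Promoter sequences are shown for the 4 changed genes with the largest differences among those with an entry, so that their base composition can be read beside their values. RefSeq promoters on GRCm38.p6, from 250 bases before to 50 after a transcript start, were matched by gene ID for 44 of the 62 genes, 64 promoters in all. St3gal5, Galnt10 and Galnt3 fell in castrated arrays and B4galt4 rose. Capitals mark the GC box GGGCGG on either strand.
St3gal5 (chr6:72097358-72097657, plus strand): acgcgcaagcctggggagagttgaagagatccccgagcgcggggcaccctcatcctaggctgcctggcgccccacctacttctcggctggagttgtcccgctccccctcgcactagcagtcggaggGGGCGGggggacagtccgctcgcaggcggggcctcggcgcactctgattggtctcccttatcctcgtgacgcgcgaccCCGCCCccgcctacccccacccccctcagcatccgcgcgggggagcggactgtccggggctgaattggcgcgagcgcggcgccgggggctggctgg
Galnt10 (chr11:57645192-57645491, plus strand): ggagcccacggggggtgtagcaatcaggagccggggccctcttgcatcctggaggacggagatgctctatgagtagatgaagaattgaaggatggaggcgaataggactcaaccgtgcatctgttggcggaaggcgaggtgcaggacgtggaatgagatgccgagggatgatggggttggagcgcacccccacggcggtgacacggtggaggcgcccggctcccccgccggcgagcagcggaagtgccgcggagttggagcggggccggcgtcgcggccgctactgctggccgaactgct
Galnt3 (chr2:66124744-66125043, minus strand): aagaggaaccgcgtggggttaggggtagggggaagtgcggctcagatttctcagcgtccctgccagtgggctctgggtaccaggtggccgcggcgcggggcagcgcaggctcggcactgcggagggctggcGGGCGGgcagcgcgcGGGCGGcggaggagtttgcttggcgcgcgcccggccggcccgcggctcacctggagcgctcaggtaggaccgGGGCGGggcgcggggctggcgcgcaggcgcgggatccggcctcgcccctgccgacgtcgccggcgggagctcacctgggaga
B4galt4 (chr16:38742009-38742308, plus strand): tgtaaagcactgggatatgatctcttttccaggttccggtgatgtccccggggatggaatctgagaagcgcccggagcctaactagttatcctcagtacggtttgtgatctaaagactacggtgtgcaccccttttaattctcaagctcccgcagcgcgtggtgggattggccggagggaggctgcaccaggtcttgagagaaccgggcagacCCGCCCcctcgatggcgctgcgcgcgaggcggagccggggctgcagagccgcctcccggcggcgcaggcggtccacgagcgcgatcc

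These 4 promoters were rich in G and C, at 72.7% for St3gal5, 66.0% for Galnt10, 76.7% for Galnt3 and 62.7% for B4galt4, against a median of 52.7% over all promoters and 59.7% over the 64. The GC box stood in 32 of the 64 promoters (50%) and in 35.7% of the 32851 promoters in the table. The palindromic androgen response element, AGAACA and TGTTCT with any 3 bases between them, was searched on both strands and occurred in 0 of the 64 and in 3 of all promoters (0.009%). At so low a rate in windows of 300 bases, a count of 0 was nearly certain beforehand. Androgen control of these genes was not tested by this search. Its single arm TGTTCT, which lies within the full element, stood in 10 of the 64 (15.6%) and in 19.0% of all promoters, and in 0 of the promoters of the 6 changed genes that had an entry. Abo, B4galt6, Galnt18 and Galnt4 had no entry in that table.

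Other genes of glycan synthesis were read from lists of pathway members. Their counts are to be read against the shares of all genes given above, 3.19% lower in castrated than in intact arrays and 1.97% higher in regenerated than in castrated arrays, or 8.19% and 5.01% of the 10004 genes with a group mean above the background limit. In the sugar nucleotide list, 8 of 25 genes changed between castrated and intact arrays, 7 lower (28%) and 1 higher, and 7 were higher in regenerated than in castrated arrays (28%). The sialic acid pathway held the 2 largest falls. Gne, the first enzyme of sialic acid synthesis, read 12.94, 12.39, 12.68 and 9.68 in regenerated, 9.92, 9.21 and 8.84 in castrated and 13.72, 13.36 and 13.80 in intact arrays. Intact arrays were highest, and regenerated replicate 4 lay inside the castrated range. Castrated minus intact was -4.31 ± 0.72 (limma adjusted p = 0.00524) and regenerated minus castrated 2.60 ± 0.67 (adjusted p = 0.0536), or 3.35 ± 0.29 without regenerated replicate 4 (adjusted p = 0.000207). Nans, the synthase of sialic acid phosphate, read 11.66, 11.82, 12.00 and 10.74 in regenerated, 9.46, 8.60 and 8.34 in castrated and 12.20, 11.93 and 11.76 in intact arrays. Castrated arrays lay below all others, and the differences were -3.17 ± 0.38 for castrated minus intact (adjusted p = 0.000916) and 2.76 ± 0.35 for regenerated minus castrated (adjusted p = 0.0017).

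Gmppa, Gmppb and Mpi were among the other genes of that list lower in castrated arrays and higher in regenerated arrays. Castrated minus intact and regenerated minus castrated differences were -2.02 and 2.20 for Gmppa, -1.94 and 2.07 for Gmppb, the subunits of GDP-mannose pyrophosphorylase, and -1.89 and 1.82 for Mpi, phosphomannose isomerase. All of these had a limma adjusted p of at most 0.00728. Galt, of galactose metabolism, was the gene that rose, by 0.85 (adjusted p = 0.0473). Of 10 Golgi sugar nucleotide transporters, Slc35a2, the UDP-galactose carrier, was the gene called, at -0.71 for castrated minus intact (adjusted p = 0.0169) and 0.67 for regenerated minus castrated (adjusted p = 0.0216).

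Of 12 oligosaccharyltransferase genes, whose complex attaches N-glycans in the endoplasmic reticulum, 4 were lower in castrated than in intact arrays and 4 were higher in regenerated than in castrated arrays (33.3% each). Magt1, which serves the complex as an oxidoreductase subunit, averaged 12.66 ± 0.40 in regenerated, 10.53 ± 0.10 in castrated and 12.64 ± 0.15 in intact arrays. Rpn1, another subunit, averaged 11.90 ± 0.49 in regenerated, 9.88 ± 0.62 in castrated and 12.04 ± 0.20 in intact arrays. Of 17 N-glycan processing genes, 2 were higher and 2 lower in castrated than in intact arrays (11.8% each). Over all genes 4.82% were higher and 3.19% lower, and over the genes above the limit 9.9% and 8.19%. Between regenerated and castrated arrays, 3 of the 17 were higher and 1 lower in regenerated arrays. The largest fall in castrated arrays was that of Mgat5, at -2.30. The Golgi mannosidase Man2a1 fell and its paralog Man2a2 rose: castrated minus intact was -2.15 for Man2a1 (limma adjusted p = 0.00786) and 1.90 for Man2a2 (adjusted p = 0.00306). Regenerated minus castrated was 2.14 for Man2a1 (adjusted p = 0.00752) and -1.72 for Man2a2 (adjusted p = 0.0049).

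Among 20 other O-glycan and glycolipid enzymes, 2 were lower in castrated than in intact arrays (10%, against 8.19% of the genes above the limit), B4galnt2 and B4galnt3, and B4galnt2 was higher in regenerated arrays. B4galnt2, which adds GalNAc to sialylated galactose to make the Sda antigen, read 10.01, 11.51, 11.76 and 10.40 in regenerated, 6.88, 8.18 and 7.24 in castrated and 10.41, 9.84 and 10.26 in intact arrays. Castrated arrays were below all others, and regenerated and intact arrays overlapped. B4galnt2 differed by -2.74 ± 0.49 for castrated minus intact (limma adjusted p = 0.00737) and by 3.49 ± 0.46 for regenerated minus castrated (adjusted p = 0.00189). Of 18 Golgi tether and matrix genes, 9 were lower in castrated than in intact arrays (50%, against 3.19% of all genes and 8.19% of those above the limit) and 2, Golga1 and Golga3, were higher in regenerated than in castrated arrays (11.1%, against 1.97% and 5.01%). The proton pump subunit gene Atp6v0a2 differed by -1.99 (adjusted p = 0.0159) and Cog7, of the conserved oligomeric Golgi complex that tethers vesicles, by -1.62 (adjusted p = 0.0164) between castrated and intact arrays. Of 15 mucin genes, which encode heavily O-glycosylated proteins, Muc20 was higher in castrated than in intact arrays by 1.05 (adjusted p = 0.0143), with group means under the background limit. That is 6.67% of the mucins, against 4.82% of all genes.

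The counts of these lists moved with regenerated replicate 4. Without it, genes higher in regenerated than in castrated arrays numbered 8 of 25 for sugar nucleotides, 7 of 12 for the oligosaccharyltransferase, 5 of 17 for N-glycan processing, 3 of 20 for other O-glycan enzymes and 7 of 18 for Golgi tethers. Over all genes that share also grew, to 3.57% from the 1.97% with all arrays. None of the 7 lists had a gene called between regenerated and intact arrays. With any 1 array left out, the genes lower in castrated than in intact arrays ranged from 6 to 9 for sugar nucleotides, from 2 to 5 for the oligosaccharyltransferase and from 2 to 12 for Golgi tethers.

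**Figure D4:**
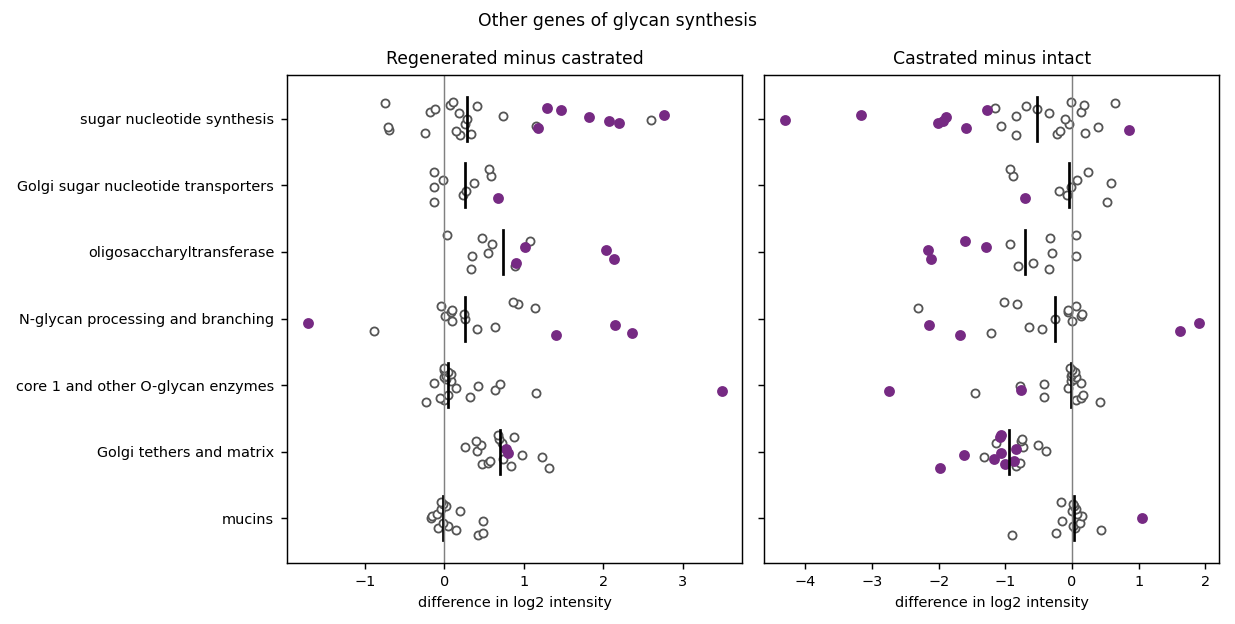
Fitted log2 differences (horizontal axis) of genes in 7 lists of glycan synthesis for regenerated minus castrated arrays (left) and castrated minus intact arrays (right). Each point is 1 gene, filled where the limma adjusted p is under 0.05, and the vertical bar is the list median. The Golgi tether genes lie below 0 on the right and above 0 on the left, and 9 of 18 are filled on the right.

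Some markers of other cells moved with the groups too, while none of 4 endothelial and 3 neuroendocrine markers was called in any comparison. No gene of those lists had a group mean above the background limit. Over all genes, 4.82% were higher and 3.19% lower in castrated than in intact arrays. Among the genes with a group mean above the limit, these shares were 9.9% and 8.19%. Of 5 urothelial markers, 2 were higher in castrated than in intact arrays: Upk1b averaged 13.30 in regenerated, 15.59 in castrated and 10.04 in intact arrays, and Upk3a averaged 4.13 in regenerated, 9.27 in castrated and 4.2 in intact arrays. The mean level of that list was 8.62 to 9.14 in regenerated, 10.22 to 10.97 in castrated and 7.94 to 8.21 in intact arrays. Of the 6 luminal markers, 3 were higher and 1 lower in castrated than in intact arrays: castrated minus intact was 1.72 for Cd24a (limma adjusted p = 0.00358), 1.41 for Krt18 (adjusted p = 0.00119), 1.37 for Krt8 (adjusted p = 0.0364) and -2.65 for Hoxb13 (adjusted p = 0.00416). Of 5 basal markers, Krt14 and Krt17 were higher in castrated than in intact arrays, both under the background limit. Krt15, the basal marker above the limit, averaged 12.48 ± 1.24 in regenerated, 11.14 ± 0.62 in castrated and 9.95 ± 0.13 in intact arrays. Its regenerated and castrated values overlapped and both lay above all intact values, with regenerated minus intact at 2.53 (limma adjusted p = 0.255) and castrated minus intact at 1.19 (adjusted p = 0.317). Of 7 leukocyte markers, 6 had no group mean above the limit. Itgam among them was higher in castrated than in intact arrays by 0.38, and was the 1 leukocyte marker called in that comparison. Cd3e averaged 6.40 in regenerated, 10.45 in castrated and 7.05 in intact arrays (regenerated minus castrated -4.04, limma adjusted p = 0.0253). Its castrated minus intact difference of 3.39 was not called with all arrays, and was called without regenerated replicate 4 (limma adjusted p = 0.0455). Of 7 stromal markers, Dcn was above the limit and was lower in castrated arrays, at 11.37 in regenerated, 7.53 in castrated and 12.23 in intact arrays, and the 6 others were under it. The mean level of the 7 seminal vesicle genes ran from 4.33 to 9.29 in regenerated, from 5.93 to 6.10 in castrated and from 6.41 to 8.96 in intact arrays, with no gene called. The part of such cells in the transferase changes was not tested.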

How the data were processed

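The deposited table holds log2 values for 72688 probe sets on 10 arrays. Per the submitters' processing notes, the authors used Affymetrix Expression Console and its RMA method. Their versions, and the genome build, were not given in the sources used here. This method corrects background, forces arrays to a common distribution and summarises probes, so a change of all transcripts in one direction would be reduced. Arrays have no sequencing depth, and their number limits the precision.

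Groups came from sample titles. Of 65956 probe sets that are not controls, 30604 had 1 gene symbol, 2146 several (left out) and 33206 none; 827 symbols were updated through the gene ID against RefSeq (GRCm38.p6), 1 of them a member (Galnt17). The probe set with the highest mean over 10 arrays stood for a gene. Each of 30142 genes was fitted in R 4.3.3 with limma 3.58.1 (lmFit, eBayes with a mean-variance trend) in 1 model of 3 groups with no covariate and 7 residual degrees of freedom, tested two-sided on simulated data first. P-values were adjusted by Benjamini-Hochberg over all genes within each contrast. SE and 95% intervals are those of the moderated fit. No batch is named in the labels, and no pair of arrays held identical values. For same-numbered arrays of different groups, correlations of their deviations ran from -0.157 to 0.264. With 3 or 4 arrays per group this cannot exclude pairing, and the numbers were not used to pair samples.

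Named with values by array, as a range or as group means are Abo, each member called in a contrast and the member of each family with the highest mean. Lists give up to 4 called genes. Galnt1, Galnt2, Galnt11, Galnt17, B4galt3, B4galt5, Fut1, Fut8, Fut9, St3gal6, Krt15, Galt and Poc1b were added after their values were seen. Members and lists were chosen with earlier results of these data known.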

Additional observations from a re-analysis of the deposited data

Results flagged for a closer look

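In the 62 regenerated groups checked, 1 array lay far from the other 3 in 3 genes, by Dixon's test at the 95% level, and it was regenerated replicate 4 each time. Chance gives this in about 1 of 20 groups. Fut9 read 9.75 there, against 5.22 to 5.86 on the other regenerated arrays. Galnt10 read 7.30, against 8.31 to 8.39. Galnt18 read 9.07, against 10.36 to 10.61. No label names a difference of that array, and the reason was not tested.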

How the results depend on the processing

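Under the alternatives tried, no named transferase gene that passed the test turned direction. Abo, B4galt6, Galnt18 and Galnt4 stayed called in both comparisons with castrated arrays under all of them, and the other 6 were lost under some. Of these, Abo was included with its change already known. Leaving out 1 array in turn gave 1019 to 3271 genes and 4 to 16 members for castrated against intact, 816 to 2127 genes and 4 to 7 members for regenerated against castrated, and 0 to 78 genes with 0 members for regenerated against intact. Array weights gave 4258 genes and 17 members for castrated against intact and 70 genes for regenerated against intact. Testing every probe set that is not a control gave 6 members for castrated against intact and 0 genes for regenerated against intact. With only the arrays of both groups compared, 822 genes were called for regenerated against castrated and 0 for regenerated against intact. For regenerated against intact, 2 genes were called with no mean-variance trend and 22 among genes above background. The replicate number was also tried as a block, without regenerated replicate 4, though whether numbers pair these arrays is not known. It gave 13 members for castrated against intact, 6 for regenerated against castrated and 0 for regenerated against intact, with 4 genes in the last. It split the genes of regenerated against castrated into 867 higher and 783 lower, where the fit of all arrays with no block gave 593 and 907. Values raised to the background limit left 10827 genes that varied. Where a count moved, the cause was not tested. Intensities near background limit what small changes of the 43 low genes can show.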
